A study of Mus musculus with 18 samples.

Results

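The genes described here encode the nuclear lamina and the LINC complex, the linker of nucleoskeleton and cytoskeleton. They are the lamins Lmna, Lmnb1 and Lmnb2, the inner nuclear membrane proteins Emd, Lbr and Tmpo, the SUN proteins Sun1 and Sun2, and the nesprins Syne1 and Syne2. Every non-control probe of the arrays whose gene name was 1 of these 10 was taken, with no use of its signal. These are 10 of the 35527 gene names on the arrays. The rule gave 19 probe names on 28 spots, out of 55681 probe names on 59305 spots. Lmna, Lmnb1, Lmnb2 and Sun2 had 1 probe each, Emd, Lbr, Sun1, Syne1 and Syne2 had 2 each and Tmpo had 5. The Lmnb1 probe was spotted 10 times per array and the others once.

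RNA was measured in the nuclear and the cytoplasmic fraction of myofibers, the multinucleated cells of skeletal muscle, from wild-type female CD1 mice aged 3 months. The 6 groups were the nuclei and the cytoplasm of extensor digitorum longus (EDL) fibers, of soleus fibers and of tibialis anterior (TA) fibers. Each group had 3 arrays, 18 in all, each with the RNA of a pool of 5 to 10 fibers. The labels name no allele or treatment that differed between groups. Fibers were freed with collagenase and picked by eye, then lysed with detergent, and the nuclei were spun down, so the nuclear fraction is a pellet and the cytoplasmic fraction its supernatant. By the labels, EDL and soleus replicates with the same number came from the same pair of mice, while TA cytoplasm 1 and TA cytoplasm 2 shared a mouse.

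The lamina is a meshwork of lamin filaments on the inner face of the nuclear envelope. Lmna encodes the A-type lamins, lamin A and lamin C, and Lmnb1 and Lmnb2 the B-type lamins. Emerin (Emd), lamin B receptor (Lbr) and LAP2, the product of Tmpo, sit in or at the inner membrane and bind lamins or chromatin. SUN proteins cross the inner membrane and hold the KASH domains of nesprins, which cross the outer membrane and reach the cytoskeleton. In muscle this chain anchors the many nuclei of a fiber, and mutations of LMNA or EMD cause Emery-Dreifuss muscular dystrophy. The arrays measured the RNA of these genes in each fraction, not their proteins.

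The sequences of 6 probes are shown as examples. Each has at least 1 reading frame free of stop codons, as do other probes of these genes. Syne1 A_55_P2026295 and Tmpo A_52_P387564, the probes lower in nuclei, are not shown. The sequences are copied from the array files, which give positions on mouse build mm9. The files write the positions in descending order for Lmna and Tmpo and in ascending order for the rest, which is the only statement of strand they hold. The Syne2 probe covers 1735 genomic bases with 60 bases of sequence, so it spans at least 1 splice junction. No base is capitalized.
Lmna A_52_P137765, chr3:88287262-88287321: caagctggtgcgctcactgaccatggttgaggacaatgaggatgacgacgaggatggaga
Emd A_55_P1984333, chrX:71501087-71501146: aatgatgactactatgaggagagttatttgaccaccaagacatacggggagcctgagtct
Sun1 A_55_P2031248, chr5:139702685-139702744: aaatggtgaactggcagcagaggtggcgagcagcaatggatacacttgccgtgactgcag
Syne1 A_51_P314186, chr10:5313453-5313512: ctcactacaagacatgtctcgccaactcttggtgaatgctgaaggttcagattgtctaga
Syne2 A_51_P210143, chr12:77022219-77023953: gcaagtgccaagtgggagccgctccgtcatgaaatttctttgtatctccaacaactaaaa
Tmpo A_55_P2067251, chr10:90615373-90615432: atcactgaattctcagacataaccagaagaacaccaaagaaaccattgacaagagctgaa

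Signal was positive and significant on 78.9% to 89.3% of the spots of an array, and precision is limited by how many arrays there are. EDL and soleus cytoplasm lay on slide 1 together with TA cytoplasm 1, and EDL and soleus nuclei lay on slide 2. TA cytoplasm 3 lay on slide 3, and TA cytoplasm 2 and the TA nuclei lay on slide 4. In EDL and in soleus, slide and fraction thus cannot be told apart. The 3 nuclear arrays of a muscle were closer to each other than the cytoplasmic ones. Their median SD over 35528 probes was 0.11 (log2) in EDL, 0.11 in soleus and 0.15 in TA, against 0.25, 0.37 and 0.40 in the cytoplasm. Should the nuclear arrays of a muscle hold less than 3 independent samples, the standard errors and p-values below are too small, so each muscle's nuclei were also counted as 1 sample. The 10 listed myofiber markers were well above background on all arrays, and Malat1, Neat1 and Xist, which stay in the nucleus, were all higher in nuclei, with a median difference of 2.78 (log2). Markers of other cells were also present. Over the 3 muscles, 7 of 7 endothelial, 5 of 6 connective tissue, 4 of 4 Schwann cell and 2 of 3 satellite cell markers tested higher in nuclei, while 4 of 5 macrophage and 2 of 3 cell division markers tested lower. The myofiber markers moved the same way as the first of these, with 9 of 10 higher and a median of 0.89, which is also the median of the connective tissue markers. Of all probes of coding genes 41.4% were higher. The summed level of the connective tissue markers was 27678 to 35337 in EDL cytoplasm and 70717 to 73562 in EDL nuclei. Their part in the differences below was not tested. In such pools, fewer cells of a type and less RNA per cell cannot be told apart.

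**Figure D1:**
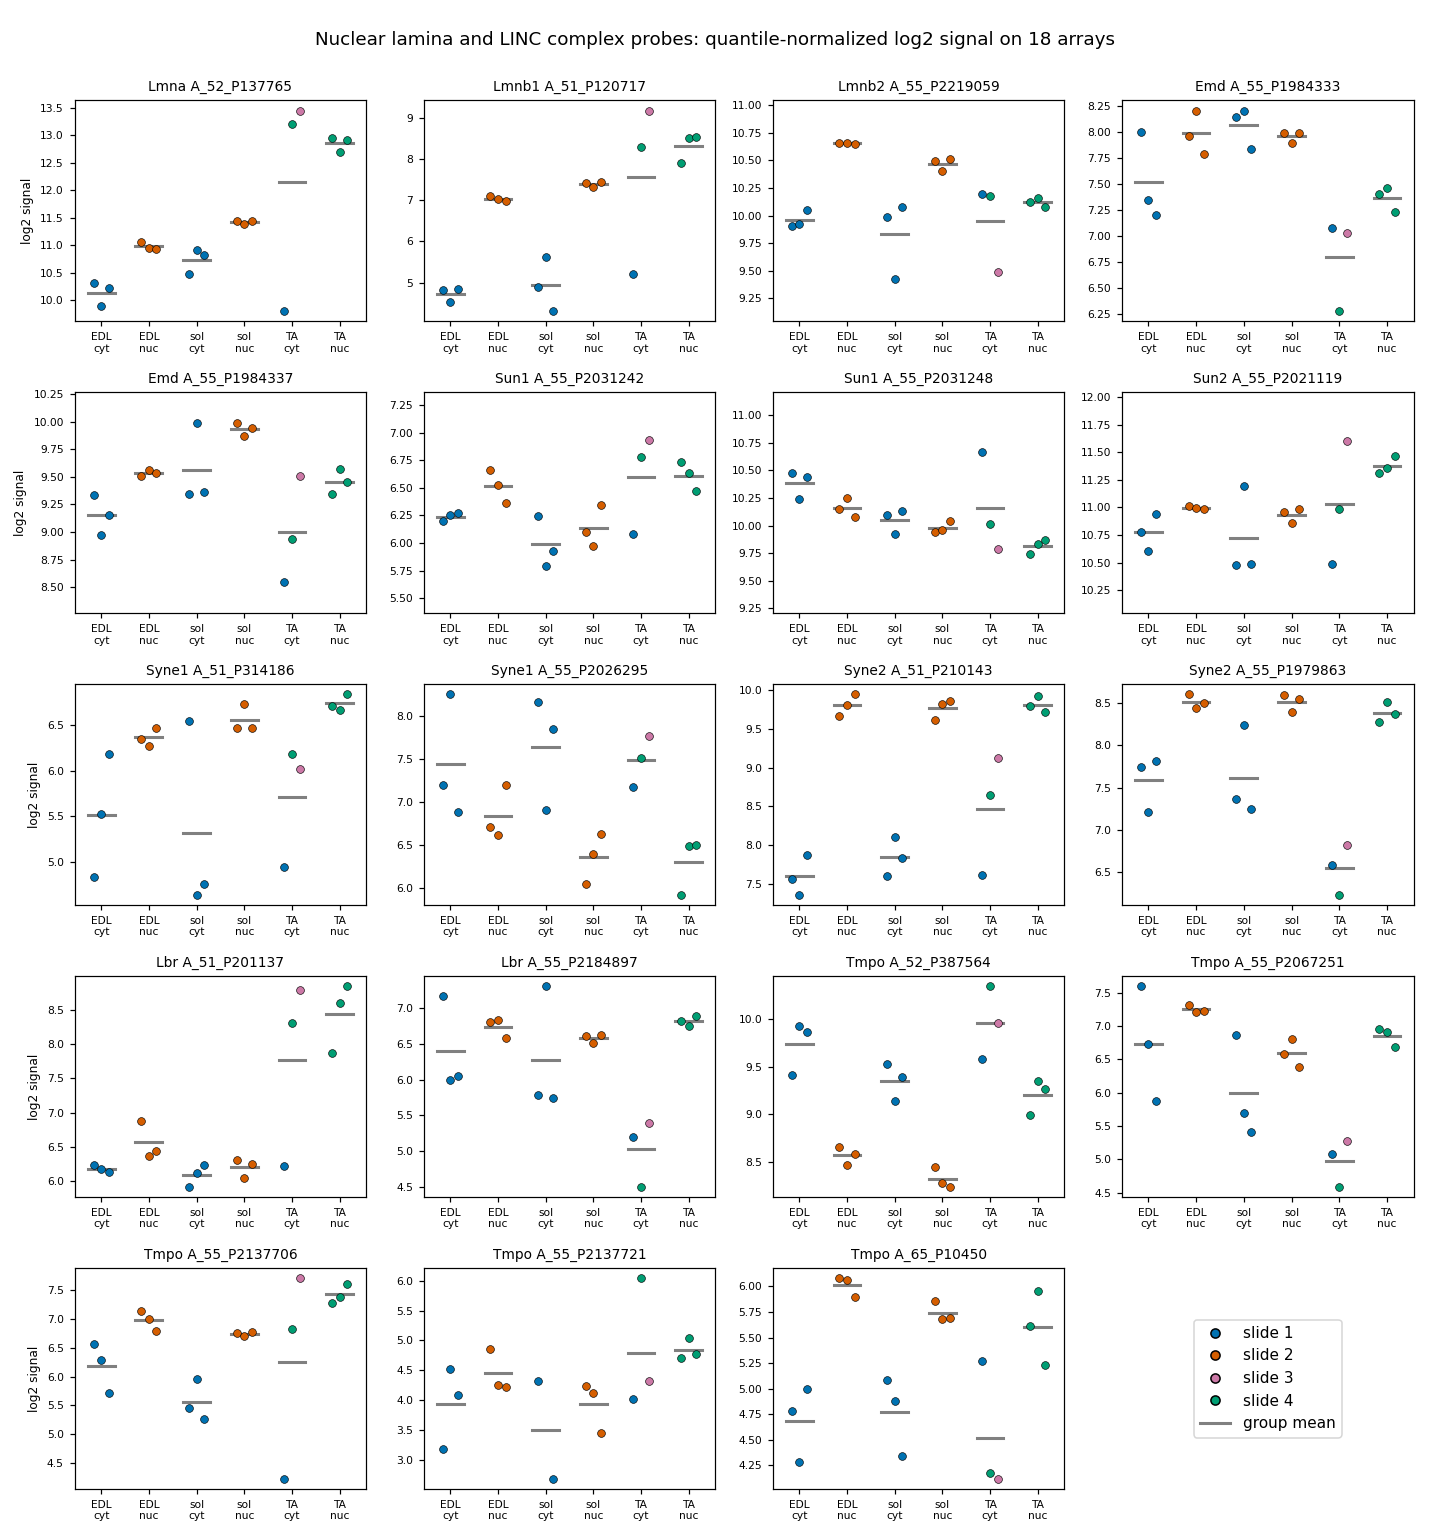
Quantile-normalized log2 signal (y axis) of each of the 19 probes in the 6 groups (x axis), 1 panel per probe; points are arrays, colored by slide, and grey lines are group means. The nuclear arrays of a muscle lie close together, and the TA cytoplasm array of slide 1 stands far below the other TA arrays at the Lmna and Lmnb1 probes (9.80 against 12.69 to 13.45, and 5.22 against 7.91 to 9.17).

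The first comparison asked at which probes the RNA of nuclei and cytoplasm differed on average over the 3 muscles. RNA of Syne2, Lmnb1, Tmpo and Syne1 was higher in nuclei at 1 or more probes by 1.00 to 1.83 (log2), that is 2.00 to 3.57-fold. Lmnb2, Emd and Lbr were higher by 0.40 to 0.81 at 1 probe each. A second probe of Syne1 and another of Tmpo were lower in nuclei by about the same factor, 2.03-fold and 1.98-fold. Lmna, Sun1 and Sun2 did not pass the test. In all, 10 of 19 probes were higher in nuclei and 2 were lower at an adjusted p under 0.05. The background is wide, since 31.2% of the 40541 probes tested were higher in nuclei and 38.6% lower, and among probes of protein-coding genes 41.4% were higher and 27.4% lower. The median difference was 0.50 over the 19 probes, -0.08 over all probes and 0.23 over those of coding genes.

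Within a muscle, 5 of 19 probes were higher in nuclei and 1 was lower in EDL, where 20% of all probes were higher and 26.5% lower (26.2% and 18.5% of those of coding genes). In soleus 6 were higher and 2 lower, against 18.7% and 21.7% of all probes (coding genes 23.4% and 15.1%). In TA 5 were higher and 2 lower, against 19.2% and 33.5% (coding genes 26.5% and 22.9%). Without TA cytoplasm 3 the count higher in TA was 11, and without soleus cytoplasm 3 or soleus nuclei 1 the count higher in soleus was 3. Without soleus cytoplasm 1, or without TA nuclei 1, the count lower in that muscle was 1. The nuclear arrays lay above all cytoplasmic arrays at 12 (EDL), 7 (soleus) and 6 (TA) probes, against 31.5%, 28.3% and 22.2% of all probes. They lay below at 1, 2 and 2 probes, against 34.8%, 28.2% and 38% of all probes. In each of the 3 muscles they lay above at 2 probes and below at 1, against 14.2% and 20.6%. The 2 were the Syne2 probes, and the 1 was Tmpo A_52_P387564.

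**Figure D2:**
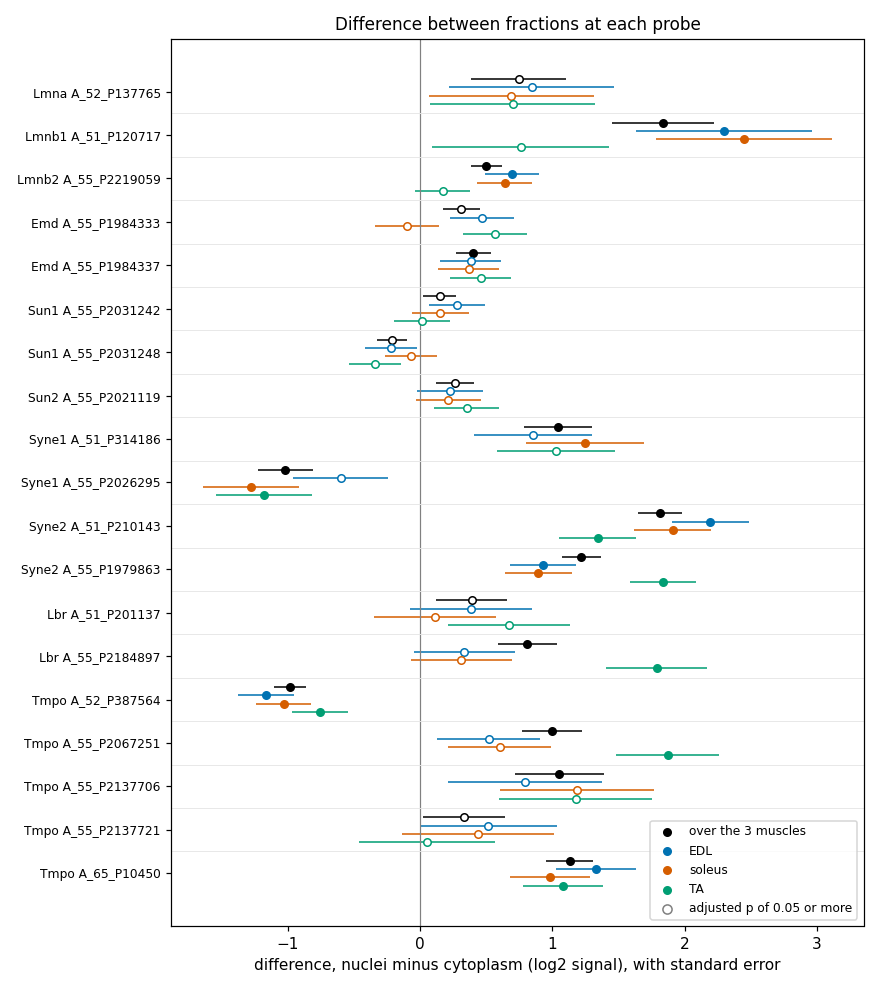
Difference between nuclei and cytoplasm (x axis, log2 signal) with its standard error for each probe (y axis), over the 3 muscles and in each; open points have an adjusted p of 0.05 or more. Syne2 lies right of 0 with both probes in each muscle, and Syne1 and Tmpo have probes on both sides.

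Among the lamins, Lmnb1 showed the largest difference. Its level in EDL was 4.82, 4.54 and 4.84 in the cytoplasm and 7.09, 7.03 and 6.97 in the nuclei. In soleus it was 4.90, 5.62 and 4.31 against 7.42, 7.33 and 7.43. In both muscles every nuclear array lay above every cytoplasmic one. Nuclei were higher by 2.30 ± 0.67 (SE) in EDL, adjusted p = 0.011, and by 2.45 ± 0.67 in soleus, adjusted p = 0.0091, and over the 3 muscles by 1.83 ± 0.39, adjusted p = 0.00057. With slide as a random block these were 1.21, 1.36 and 1.00 and no longer passed (adjusted p = 0.39, 0.38 and 0.22). Only the TA cytoplasm arrays of a group lay on several slides, so the slide term could be told from the groups through them alone. The EDL and soleus values of this fit thus depend on the TA cytoplasm arrays too. The 10 spots of this probe measure the error within an array. The SD of single spots within an array was 0.065 to 0.12 in EDL nuclei. Between the 3 array means the SD was 0.060, but a mean over spots carries less spot error than a single spot. In TA cytoplasm the array means had an SD of 2.08.

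Lmnb2 differed less but with a smaller spread. Its EDL levels were 9.90, 9.92 and 10.05 in the cytoplasm and 10.66, 10.66 and 10.65 in the nuclei. Its soleus levels were 9.99, 9.43 and 10.08 against 10.49, 10.40 and 10.51. Again the groups did not overlap, with nuclei above. The difference was 0.70 ± 0.21 in EDL, adjusted p = 0.012, and 0.64 ± 0.21 in soleus, adjusted p = 0.023. In TA the levels were 10.19, 10.17 and 9.49 in the cytoplasm and 10.12, 10.16 and 10.08 in the nuclei, which overlapped and differed by 0.17 ± 0.21, adjusted p = 0.50. Over the 3 muscles the difference was 0.50 ± 0.12, adjusted p = 0.0015. The call in soleus was lost without soleus cytoplasm 2 (0.43, adjusted p = 0.080), without soleus nuclei 1 (0.63, 0.062) and without soleus nuclei 3 (0.62, 0.066), and without TA cytoplasm 3 the TA difference was -0.06.

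The probe of Lmna, whose file entry lists 2 RefSeq transcripts, read 10.31, 9.89 and 10.22 in EDL cytoplasm and 11.05, 10.96 and 10.94 in EDL nuclei. In soleus it read 10.47, 10.91 and 10.82 in the cytoplasm and 11.44, 11.39 and 11.44 in the nuclei. In both muscles the nuclear arrays lay above the cytoplasmic ones. The difference was 0.84 ± 0.63 in EDL, adjusted p = 0.28, and 0.69 ± 0.63 in soleus, adjusted p = 0.40. Over the 3 muscles it was 0.74 ± 0.36, adjusted p = 0.078, so Lmna was not called. The standard error is shared by the 6 groups and carried the spread of TA, where the cytoplasm read 9.80, 13.21 and 13.45 and the nuclei 12.96, 12.69 and 12.92.

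This TA pattern rested on 1 array. Without TA cytoplasm 1 Lmna was higher in nuclei in EDL by 0.85, adjusted p = 0.00069, and in soleus by 0.69, adjusted p = 0.0036, and over the 3 muscles by 0.35, adjusted p = 0.0046. In TA it then turned to -0.47, adjusted p = 0.043, lower in nuclei, and within slide 4 alone it was -0.34. Slide 4 holds 1 TA cytoplasm array, which the fit assumes to vary like the other groups, so that value has no replicate check on the cytoplasmic side. Leaving out TA cytoplasm 2 or TA cytoplasm 3 also gave a call over the 3 muscles, with 0.92 and 0.96 (adjusted p = 0.031 and 0.018). Lmnb1 behaved alike in TA, with 5.22, 8.28 and 9.17 in the cytoplasm and 7.91, 8.52 and 8.52 in the nuclei. Its TA difference was 0.76 ± 0.67, adjusted p = 0.35, but 1.57 without TA cytoplasm 3 (adjusted p = 0.040), -0.41 without TA cytoplasm 1 (adjusted p = 0.32) and 0.03 within slide 4.

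Between TA cytoplasm 1 and the mean of TA cytoplasm 2 and 3, 4 of the 19 probes differed by over 2 (log2), as did 4.29% of the 44536 probes with a value on all 3 arrays. They were Lmna (3.53), Lmnb1 (3.51), Tmpo A_55_P2137706 (3.05) and Lbr A_51_P201137 (2.33), all lower on TA cytoplasm 1. The other probes of Tmpo and Lbr did not move by as much. Some markers of satellite cells, the stem cells of muscle, and of dividing cells moved with these 4 probes. Cdh15, an adhesion protein of satellite cells and myoblasts, read 6.60 on TA cytoplasm 1, 12.53 and 11.55 on TA cytoplasm 2 and 3, and 11.88 to 12.19 on the TA nuclei. It read 6.26 to 7.00 on the 12 EDL and soleus arrays. Mki67, which is made in dividing cells, read 6.28, 9.15 and 10.00 on TA cytoplasm 1 to 3 and 8.42 to 9.42 on the TA nuclei. Over the whole satellite cell list, the summed level was 167 to 6054 in TA cytoplasm, 4048 to 4982 in TA nuclei and at most 744 in the EDL and soleus groups. On the 5 higher TA arrays Cdh15 made up most of that sum. The other satellite cell markers moved less or not with it. Pax7 read 3.83, 5.68 and 4.88 on TA cytoplasm 1 to 3, Heyl 4.79, 5.89 and 5.68, while Chodl, with 4.78, 4.27 and 3.36, was highest on TA cytoplasm 1. Among the cell division markers Top2a read 2.65, 5.62 and 6.83, while Ccnb1 read 7.49, 7.48 and 7.85 and Cdk1 8.01, 8.05 and 7.58. Myf5 was well above background on no array, and Pax7 on none of EDL. The part of these markers in the levels of Lmna, Lmnb1, Tmpo and Lbr was not tested, and slide and scan day changed with them.

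**Figure D3:**
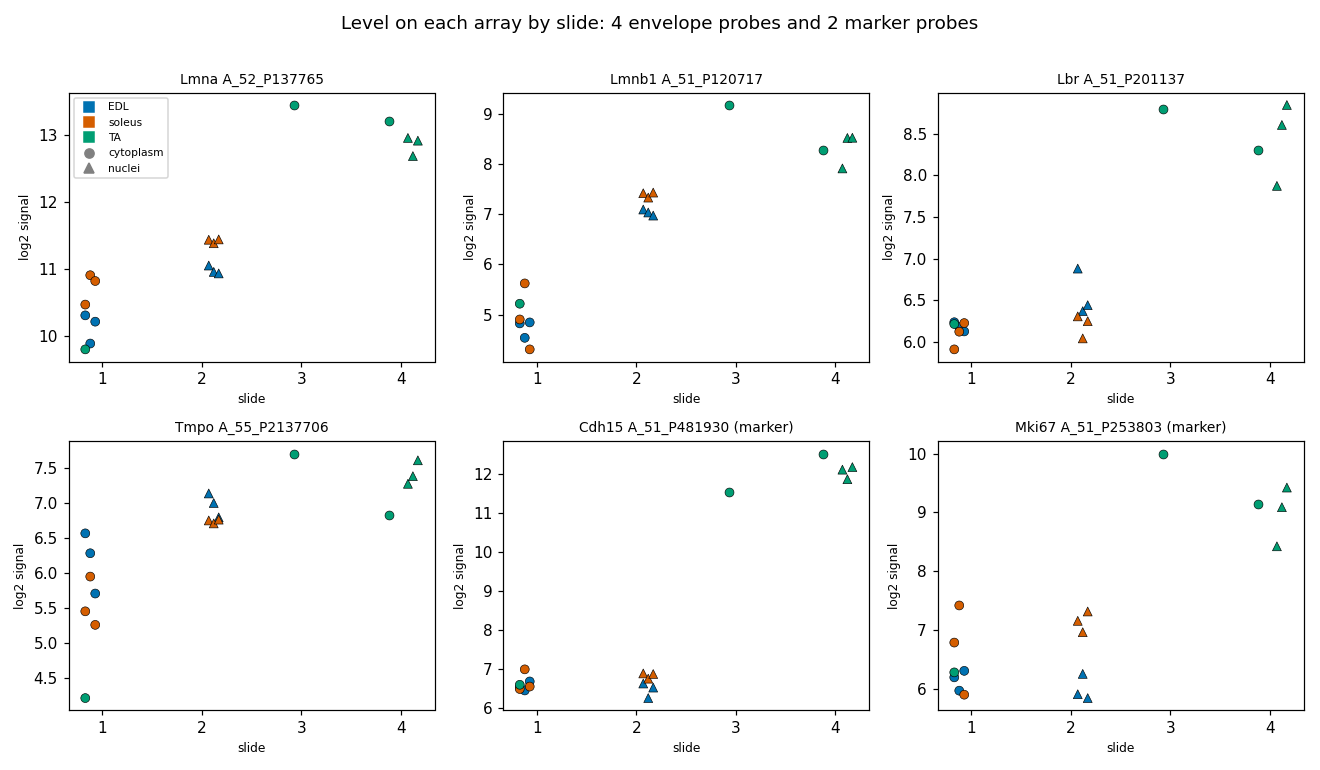
Log2 signal (y axis) of 4 envelope probes and of the markers Cdh15 and Mki67 on each array, by slide (x axis); color gives the muscle and shape the fraction. TA cytoplasm 1, on slide 1, lies among the EDL and soleus cytoplasm arrays, or below them for Lmna and Tmpo, and the other 5 TA arrays lie above them for Lmna, Lmnb1, Lbr, Cdh15 and Mki67.

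At the inner membrane, emerin RNA was slightly higher in nuclei at 1 of its 2 probes. Probe A_55_P1984337 read 9.33, 8.97 and 9.16 in EDL cytoplasm and 9.50, 9.56 and 9.54 in EDL nuclei, without overlap. In soleus it read 9.35, 9.98 and 9.37 against 9.98, 9.87 and 9.94, and in TA 8.55, 8.94 and 9.51 against 9.34, 9.57 and 9.45, with overlap in both. The difference was 0.40 ± 0.13 over the 3 muscles, adjusted p = 0.014. No muscle alone passed, with 0.37 to 0.46, except soleus without soleus cytoplasm 2 (0.57, adjusted p = 0.049) and TA without TA cytoplasm 3 (0.71, adjusted p = 0.010). The second probe, A_55_P1984333, gave 0.31 ± 0.14, adjusted p = 0.058, and its TA nuclei (7.23 to 7.46) lay above its TA cytoplasm (6.28 to 7.08). That difference passed without EDL cytoplasm 1, TA cytoplasm 1 or TA cytoplasm 3 (0.35 to 0.39, highest adjusted p 0.039). Without the same arrays its TA difference passed too (0.57 to 0.71, highest adjusted p 0.040), as did EDL without EDL cytoplasm 1 (0.71, adjusted p = 0.027). In soleus the difference of A_55_P1984333 was -0.10, adjusted p = 0.76, with overlap.

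Lbr was higher in nuclei at 1 of its 2 probes. Probe A_55_P2184897 gave differences in EDL and soleus of 0.33 ± 0.38 and 0.31 ± 0.38 (adjusted p = 0.49 and 0.54). In TA it read 4.50 to 5.40 in the cytoplasm and 6.82, 6.75 and 6.89 in the nuclei, so the groups lay well apart. This was a difference of 1.79 ± 0.38 or 3.46-fold, adjusted p = 0.0012, and 2.35 within slide 4, against its single TA cytoplasm array. Over the 3 muscles it was 0.81 ± 0.22, adjusted p = 0.0041, and without soleus cytoplasm 2 soleus also passed, with 0.82 (adjusted p = 0.044). The interaction of muscle and fraction did not pass at either Lbr probe (adjusted p = 0.21 and 0.89). The other Lbr probe, A_51_P201137, read 5.91 to 6.88 on all EDL and soleus arrays. It gave 0.39 ± 0.27 over the 3 muscles, adjusted p = 0.21. This passed with the replicate number as a block (0.39, adjusted p = 0.049) and without TA cytoplasm 3 (0.56, adjusted p = 0.046). In TA it was 0.67 ± 0.46, adjusted p = 0.24, but 1.18 without TA cytoplasm 3 (adjusted p = 0.034) and -0.11 without TA cytoplasm 1.

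Tmpo encodes several LAP2 proteins by alternative splicing, and its 5 probes did not move together. A_52_P387564 was the probe of this gene that was lower in nuclei. It is described for transcript variant 3, as are A_55_P2067251 and A_55_P2137706, which were higher in nuclei over the 3 muscles. The annotation lists 4, 3 and 4 RefSeq transcripts for these probes in turn, so none is tied to a single variant. A_52_P387564 read 9.41, 9.93 and 9.87 in EDL cytoplasm and 8.65, 8.47 and 8.58 in EDL nuclei. In soleus it read 9.53, 9.14 and 9.39 against 8.44, 8.28 and 8.24, and in TA 9.58, 10.34 and 9.96 against 9.00, 9.35 and 9.27. In each muscle every nuclear array was below every cytoplasmic array. Nuclei minus cytoplasm came to -1.17, -1.03 and -0.76 in EDL, soleus and TA, each with an SE of 0.21 and adjusted p = 0.00042, 0.0014 and 0.0071.

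A_65_P10450, described in the files as a probe for transcript variant 1, went the other way. It read 4.78, 4.28 and 4.99 in EDL cytoplasm and 6.08, 6.06 and 5.90 in EDL nuclei, and 5.09, 4.87 and 4.34 against 5.86, 5.69 and 5.69 in soleus. In TA it read 5.27, 4.18 and 4.11 against 5.61, 5.95 and 5.23, where the highest cytoplasmic array lay just above the lowest nuclear one. Nuclei were higher by 1.33, 0.98 and 1.08 in EDL, soleus and TA, each with an SE of 0.30 (adjusted p = 0.0023, 0.018 and 0.0073). This probe is dim, and was well above background on 2 of 3 EDL, 2 of 3 soleus and 1 of 3 TA cytoplasm arrays. Without soleus cytoplasm 3 or soleus nuclei 1 the soleus difference did not pass (0.77 and 0.92, adjusted p = 0.088 and 0.058).

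A_55_P2067251 and A_55_P2137706 were higher in nuclei over the 3 muscles by 1.00 ± 0.22 and 1.05 ± 0.34, adjusted p = 0.0010 and 0.011. For the first the difference was 1.87 ± 0.39 in TA, adjusted p = 0.00096, where it read 5.08, 4.59 and 5.28 in the cytoplasm and 6.96, 6.91 and 6.69 in the nuclei, without overlap. In EDL and soleus it was 0.52 and 0.60, which passed only without EDL cytoplasm 1 (0.95, adjusted p = 0.049) or soleus cytoplasm 1 (1.05, adjusted p = 0.041) among the arrays left out. The second read 5.71 to 6.57 in EDL cytoplasm, 6.80 to 7.14 in EDL nuclei, 5.27 to 5.96 in soleus cytoplasm and 6.72 to 6.77 in soleus nuclei. It separated the fractions in both muscles, but no single muscle passed (0.79 to 1.19) until TA cytoplasm 1 was left out, which gave 0.80 in EDL and 1.19 in soleus (adjusted p = 0.020 and 0.0022). In TA it gave 1.91 without TA cytoplasm 3, adjusted p = 0.0064, 1.17 with the replicate number as a block, adjusted p = 0.048, and 0.16 without TA cytoplasm 1. A_55_P2137721, described for transcript variant 6, was well above background on no soleus array, no EDL cytoplasm array, 1 EDL nuclei array and 1 TA cytoplasm array, so its fold is not given. It was not called over the 3 muscles (adjusted p = 0.35) or in EDL (adjusted p = 0.43).

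The SUN genes showed no difference past the test, either over the 3 muscles or in any 1 of them. Sun2 read 10.61 to 10.94 in EDL cytoplasm and 10.99 to 11.01 in EDL nuclei, without overlap. It read 10.48 to 11.20 against 10.86 to 10.99 in soleus, and 10.49 to 11.60 against 11.31 to 11.46 in TA. Its difference was 0.26 ± 0.14 over the 3 muscles, adjusted p = 0.12, and 0.34 and 0.36 without soleus cytoplasm 2 or without TA cytoplasm 3 (adjusted p = 0.029 and 0.016). The Sun1 probes gave 0.15 ± 0.12 and -0.21 ± 0.11, adjusted p = 0.30 and 0.11. Probe A_55_P2031248, whose sequence is shown above, was the lower of these and read 10.24 to 10.48 in EDL cytoplasm and 10.08 to 10.25 in EDL nuclei. Without TA cytoplasm 3 it gave -0.27, adjusted p = 0.026, and in TA alone it and Sun2 then passed with -0.53 and 0.64 (adjusted p = 0.029 and 0.026). With standard errors of 0.11 to 0.14, differences of this size are not excluded.

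RNA of the nesprin Syne2 was higher in nuclei at both probes in each muscle. Probe A_51_P210143, which spans a splice junction, read 7.57, 7.36 and 7.88 in EDL cytoplasm and 9.66, 9.80 and 9.94 in EDL nuclei. In soleus it read 7.60, 8.10 and 7.84 against 9.61, 9.81 and 9.85, and in TA 7.62, 8.64 and 9.13 against 9.79, 9.92 and 9.71. The 9 nuclear arrays lay between 9.61 and 9.94, above all 9 cytoplasmic arrays. Nuclei were higher by 2.19, 1.91 and 1.34 in EDL, soleus and TA, each with an SE of 0.29 (adjusted p = 3.2e-05, 0.00015 and 0.0013). Over the 3 muscles the difference was 1.82 ± 0.17 or 3.52-fold, adjusted p = 1.9e-07, and it was 0.92 in TA without TA cytoplasm 1, adjusted p = 0.0025.

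The other Syne2 probe, A_55_P1979863, read 7.74, 7.21 and 7.81 in EDL cytoplasm and 8.60, 8.44 and 8.50 in EDL nuclei. In soleus it read 7.36, 8.25 and 7.25 against 8.59, 8.40 and 8.55, and in TA 6.59, 6.23 and 6.82 against 8.28, 8.51 and 8.37. The nuclear arrays again lay above the cytoplasmic ones in each muscle. The difference was 0.93, 0.89 and 1.84 in EDL, soleus and TA, each with an SE of 0.25 (adjusted p = 0.0071, 0.011 and 3.8e-05), and 1.22 ± 0.14 over the 3 muscles, adjusted p = 2.5e-06. Without soleus cytoplasm 3 the soleus difference was 0.71, adjusted p = 0.056.

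Syne1, the nesprin gene best known for anchoring nuclei under the neuromuscular junction, had probes that went opposite ways. A_51_P314186 is described for transcript variant 3, but its annotation lists 2 RefSeq transcripts. It read 4.83, 5.52 and 6.18 in EDL cytoplasm and 6.35, 6.27 and 6.47 in EDL nuclei. In TA it read 4.94, 6.19 and 6.02 against 6.72, 6.67 and 6.84. In soleus the cytoplasm read 6.55, 4.63 and 4.76, of which 1 array was well above background, and the nuclei 6.47, 6.74 and 6.47. Nuclei lay above cytoplasm in EDL and TA and overlapped it in soleus. The difference was 1.04 ± 0.26 over the 3 muscles, adjusted p = 0.0021. In soleus it was 1.25 ± 0.45, adjusted p = 0.037, a call that was lost when soleus cytoplasm 2, soleus cytoplasm 3 or any of the 3 soleus nuclei was left out (0.91 to 1.29, adjusted p = 0.070 to 0.15), and with replicate number as a block (adjusted p = 0.059). Without soleus cytoplasm 1 the EDL and TA differences passed, with 0.86 and 1.03 (adjusted p = 0.043 and 0.016).

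The other Syne1 probe, A_55_P2026295, described for transcript variant 1, was lower in nuclei. It read 8.16, 6.91 and 7.85 in soleus cytoplasm and 6.05, 6.40 and 6.64 in soleus nuclei, and 7.18, 7.51 and 7.76 against 5.92, 6.49 and 6.51 in TA. In EDL it read 7.20, 8.25 and 6.88 against 6.71, 6.62 and 7.20. Nuclei lay below cytoplasm in soleus and TA, with overlap in EDL. The difference was -1.28 ± 0.36 in soleus and -1.18 ± 0.36 in TA, adjusted p = 0.011 and 0.013, and -1.02 ± 0.21 over the 3 muscles, adjusted p = 0.00046. Without soleus cytoplasm 1 the soleus value was -1.03, adjusted p = 0.056, and without TA nuclei 1 the TA value was -0.98, adjusted p = 0.059.

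The probes of a gene were also compared with each other, by testing whether the nuclei minus cytoplasm difference was the same for a pair of probes. Of the 15 pairs among these genes, 6 differed at an adjusted p under 0.05, against 53.5% of the 5724 same-gene pairs tested. The Syne1 probes differed by 2.07 ± 0.27, adjusted p = 1.4e-05, with 1.46 in EDL, 2.53 in soleus and 2.21 in TA. The Syne2 probes differed by 0.60 ± 0.18, adjusted p = 0.011, with 1.27 in EDL, 1.02 in soleus and -0.50 in TA, so their order turned in TA. Tmpo A_52_P387564 differed from each of the other 4 Tmpo probes, by 1.98 to 2.12 (log2) for 3 of them. For A_55_P2137721, a probe mostly not well above background, the value was 1.36. Those 4 did not differ among themselves past the test. With 1 array left out, some of them did, all but 1 of these pairs with the dim A_55_P2137721. Without TA cytoplasm 1, the differences of A_55_P2137706 and A_55_P2137721 minus that of A_65_P10450 were -0.54 and -1.07 (adjusted p = 0.040 and 0.0080). Without EDL cytoplasm 1, the difference of A_55_P2137721 was smaller than those of A_55_P2067251 (0.88 for the latter minus the former, adjusted p = 0.033) and A_65_P10450 (-0.96 for the former minus the latter, adjusted p = 0.046). With the replicate number as a block, A_55_P2137721 minus A_65_P10450 gave -0.87, adjusted p = 0.049. With slide as a random block, A_52_P387564 no longer differed past the test from A_55_P2137706 or A_55_P2137721 (-1.41 and -1.06, adjusted p = 0.11 and 0.16). Without TA cytoplasm 3, A_55_P2137706 exceeded A_55_P2137721 by 1.11, adjusted p = 0.0056. The pairs of Emd, Lbr and Sun1 did not pass, with -0.09, -0.42 and 0.36 (adjusted p = 0.66, 0.32 and 0.12). The Lbr pair passed without TA cytoplasm 1 (-0.71, adjusted p = 0.022) and the Sun1 pair without TA cytoplasm 3 (0.48, adjusted p = 0.026), and without TA cytoplasm 1 the Emd pair turned to 0.03. Syne1 and Tmpo were among the 551 of 3953 genes, or 13.9%, with probes called in opposite directions.

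**Figure D4:**
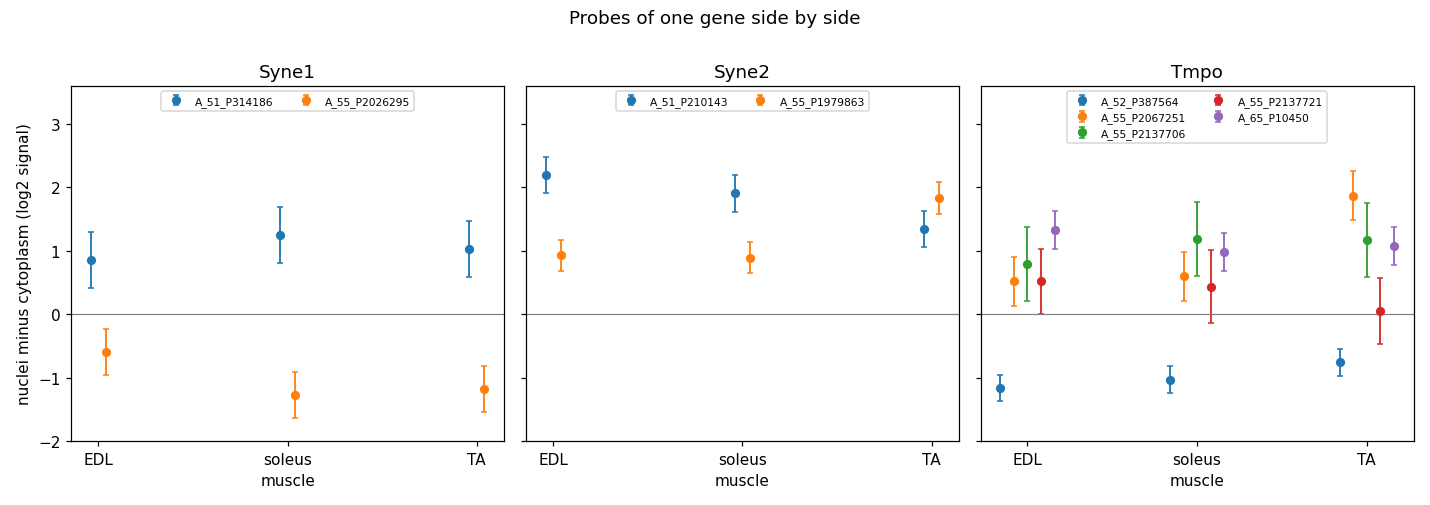
Difference between nuclei and cytoplasm (y axis, log2 signal) with its standard error in each muscle (x axis) for the probes of Syne1, Syne2 and Tmpo. The probes of Syne1 lie on opposite sides of 0 in each muscle, and so does Tmpo A_52_P387564 against the other Tmpo probes, while the Syne2 probes change order in TA.

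The size of these calls depends on what is counted as a sample and on the scaling. When a muscle's nuclear arrays counted as 1 sample, or with slide as a random block, 3 of 19 probes were higher in nuclei over the 3 muscles and 2 were lower, the same 5 both times. These were both Syne2 probes and Tmpo A_65_P10450 above, and Syne1 A_55_P2026295 and Tmpo A_52_P387564 below. The share of all probes called in these fits was not computed. Of the 7 calls lost with the slide block, Lmnb1 is given above and Lmnb2 gave 0.54, Emd A_55_P1984337 0.27 and Lbr A_55_P2184897 0.95 (adjusted p = 0.061, 0.40 and 0.10). Tmpo A_55_P2067251 gave 1.09, Tmpo A_55_P2137706 0.33 and Syne1 A_51_P314186 0.73 (adjusted p = 0.070, 0.66 and 0.27). The slide term could be told from the groups only through the TA cytoplasm arrays. With no scaling between arrays the 3 probes higher in both fits rose to 2.55, 1.90 and 1.48. The median of all probes rose to 0.42 as well. The pair below then gave -0.40 and -0.20, adjusted p = 0.095 and 0.24, still under that median, while Sun1 A_55_P2031248 turned to 0.58 and was called higher. With scaling to the 75th percentile the median of all probes was -0.30 and all 12 calls stood.

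**Figure D5:**
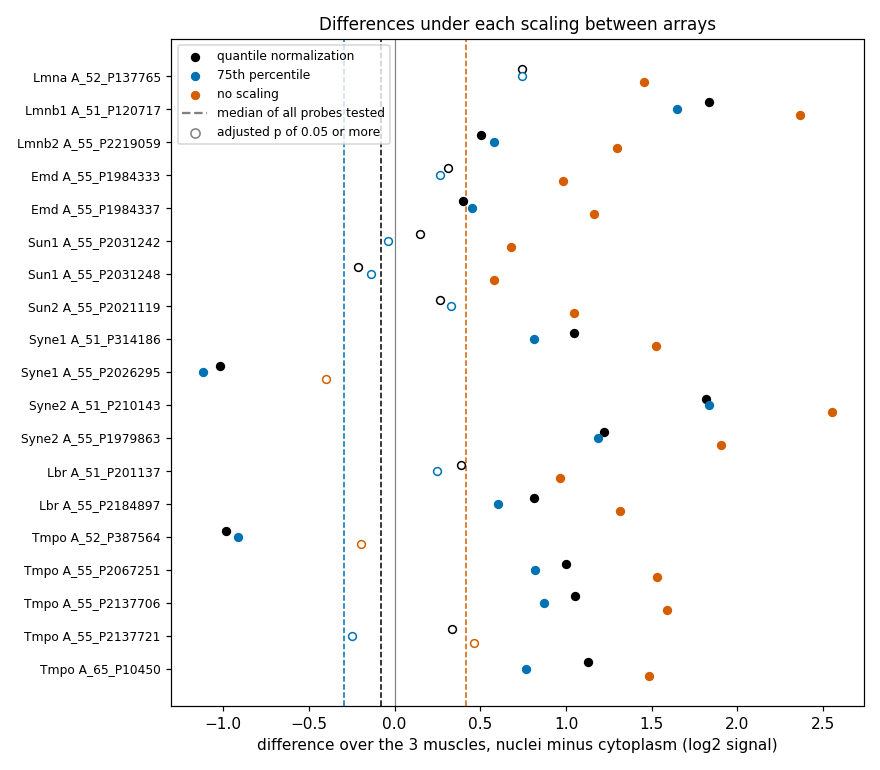
Difference between nuclei and cytoplasm over the 3 muscles (x axis, log2 signal) of each probe (y axis) under quantile normalization, scaling to the 75th percentile and no scaling; dashed lines mark the median of all probes tested under each, -0.08, -0.30 and 0.42. Without scaling all probes shift to the right, and no probe is called lower in nuclei.

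The muscles were then compared. Soleus, a slow muscle, and EDL, a fast one, did not differ past the test at any of the 19 probes, neither in nuclei nor in cytoplasm. At an unadjusted p under 0.05 there were 0 probes in nuclei and 1 in cytoplasm. Among all probes 0.978% were higher and 0.579% lower in soleus nuclei, and 0.853% and 0.57% in soleus cytoplasm. For coding genes these were 1.35% and 0.709%, and 1.4% and 0.627%. The soleus minus EDL differences in nuclei were 0.44 ± 0.63 for Lmna, 0.36 ± 0.67 for Lmnb1 and -0.04 ± 0.29 and 0.00 ± 0.25 for the Syne2 probes. Large standard errors, which carry the spread of TA cytoplasm, thus leave room for differences at the lamins. In nuclei Lmna read 11.39 to 11.44 in soleus and 10.94 to 11.05 in EDL, and Lmnb1 7.33 to 7.43 and 6.97 to 7.09. Lmnb2 went the other way, with 10.40 to 10.51 and 10.65 to 10.66. In cytoplasm Lmna read 10.47 to 10.91 and 9.89 to 10.31, while Lmnb1 overlapped. The share of all probes so separated was not counted. The interaction test asked whether the fraction difference depended on muscle. It called 0 of 19 probes at an adjusted p under 0.05, where it called 1.55% of all probes. At an unadjusted p under 0.05 there were 3 of 19, or 15.8%, against 16.7% of all probes. The 3 were Syne2 A_55_P1979863, Lbr A_55_P2184897 and Tmpo A_55_P2067251 (adjusted p = 0.23, 0.21 and 0.29), whose differences were largest in TA. Without TA cytoplasm 1, 3 other probes were called, Lmna, Lmnb1 and Syne2 A_51_P210143 (adjusted p = 0.018, 0.0072 and 0.042). Their differences were then smallest in TA. All TA arrays but TA cytoplasm 1 lay on other slides and another scan day than EDL and soleus. Where TA is compared, muscle thus cannot be told apart from slide and scan day.

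Other genes of the nuclear envelope were set beside these, each by its probe with the highest mean. Other probes of a gene may differ from it. The same rule would read Syne1 and Tmpo by A_55_P2026295 and A_52_P387564, their probes lower in nuclei. Over the 3 muscles, 31.2% of all probes tested and 41.4% of those of coding genes were higher in nuclei, and 38.6% and 27.4% lower. Of 29 nucleoporins, the building blocks of the nuclear pore, 19 were higher in nuclei and 3 lower over the 3 muscles. Their median was 0.73, against 0.23 over probes of coding genes. The largest were Tpr, the nuclear basket protein, with 2.11 ± 0.19, and Ranbp2, of the cytoplasmic filaments of the pore, with 1.93 ± 0.22 (adjusted p = 1.4e-07 and 1.5e-06). Nup107 and Nup214 were lower, with -1.42 ± 0.15 and -0.97 ± 0.14 (adjusted p = 5.9e-07 and 1.7e-05). Without TA cytoplasm 1 the count lower was 5.

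The enzymes that process lamin precursors were split. Fnta and Fntb, the subunits of the farnesyltransferase that lipidates lamins, were higher in nuclei by 0.82 ± 0.13 and 0.55 ± 0.11 (adjusted p = 5.9e-05 and 0.00031). Rce1, which trims the farnesylated end, and Icmt, which methylates it, were lower, with -0.97 ± 0.10 and -0.54 ± 0.16 (adjusted p = 5.0e-07 and 0.0075). Zmpste24, the protease that matures lamin A, gave 0.28 ± 0.12, adjusted p = 0.055. The median of the 5 was 0.28, against 0.23 over probes of coding genes.

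Of 14 LEM domain and other envelope membrane genes 12 could be tested. Of these, 3 were higher in nuclei, 2 lower and 7 not called, with a median of 0.16. Among probes of coding genes 41.4% were higher and 27.4% lower, with a median of 0.23. Tor1aip2 and Lemd2 were higher by 1.38 ± 0.17 and 0.95 ± 0.37 (adjusted p = 3.8e-06 and 0.033), and Nrm and Tor1aip1 lower, with -0.42 ± 0.11 and -0.40 ± 0.17 (adjusted p = 0.0039 and 0.048). The probes read for Tor1aip1 and Tor1aip2, the lamina-bound and the endoplasmic reticulum activators of torsin ATPases, thus went opposite ways. The count higher was 5 without TA cytoplasm 1 and 1 without EDL cytoplasm 3, soleus cytoplasm 1, soleus nuclei 3 or TA nuclei 3, and the count lower was 1 in 11 of the 18 fits that leave out an array and with the replicate number as a block. Of the other SUN and KASH genes only Sun5, Mrvi1 and Lrmp could be tested, and Sun5 was lower, with -0.88 ± 0.13 (adjusted p = 1.7e-05).

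The genes whose pattern over the 18 arrays was most like that of Lmna were Coro1c, Scarf2 and Sap130. After each probe was centered, their root mean square distance from the Lmna probe was 0.14, 0.17 and 0.18 (log2). The median over 13354 candidate probes was 1.28. All 3 genes share the step between TA cytoplasm 1 and the other TA arrays, on arrays that share slides. For Syne1 A_55_P2026295 they were Adam18, Olfr799 and Rab3c, at 0.30, 0.31 and 0.31, where the median was 0.87.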

How the data were processed

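RNA of 18 fraction samples, 3 for each of 6 groups, was amplified, labelled with Cy3 and hybridized to 1-color Agilent mouse arrays. The authors deposited the scanner intensity of every spot from Agilent Feature Extraction 10.7.3.1, corrected for background but not scaled between arrays. A deposited matrix of quantile-normalized intensity held values for 3687 features and no probe of these genes, and was not used. Spots without the positive-and-significant flag, or with an outlier flag, were set to missing. The rest were taken to log2, quantile normalized and averaged by probe name. No spot of these genes was saturated (0).

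Tests used limma 3.58.1 in R 4.3.3 with the data.table package, version 1.17.8, where the study's methods name SAM. A model of 6 group means, with up to 12 residual degrees of freedom and a prior of 3.27, was fitted to all probes. A probe was tested in a comparison when each group involved had values on 2 or more of its 3 arrays. Tests were 2-sided, and p-values were adjusted by Benjamini-Hochberg over all probes tested, with a threshold of 0.05. The test of probe pairs, over genes with 2 to 6 probes, was added after the data were seen. The scripts were tested on simulated data. Files were read with pandas 2.3.3 and numpy 2.4.6 under Python 3.11.15, and plots drawn with matplotlib 3.10.9. Gene symbols were matched to RefSeq names only.

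All probes of the 10 genes are reported. From each of 4 lists of other envelope genes, each gene by its probe with the highest mean, the text names the 2 called genes with the largest differences in each direction, all 5 lamin processing enzymes, and the 3 genes most like Lmna and Syne1. Genes and lists were chosen with earlier results of these data known. By the labels replicates are separate pools, some of which share mice, so p-values measure the spread between these samples, part of which may be technical. By the labels, same-numbered EDL and soleus arrays of both fractions come from the same mice, and number 1 and number 2 of TA share a mouse between fractions, while number 3 does not, so the numbers pair all arrays but TA number 3. Deviations from the group means correlated at r = -0.18 to 0.13 between same-numbered arrays, over 35528 probes. Alternatives covered scaling, background, filters, slide, replicate block, nuclear arrays as 1 sample and each array left out.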

Additional observations from a re-analysis of the deposited data

How the results depend on the processing

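Recomputed were the differences of the 19 probes over the 3 muscles, of 13 probes (the 12 called ones and Lmna) within each muscle, and of 9 probe pairs (the called ones and those outside Tmpo). Under another scaling, filter, model or choice of batch, 567 of these values kept their direction and their side of the threshold, 41 gained a call, 59 lost one and 19 changed sign. With 1 array left out these numbers were 1160, 25, 13 and 4. With no scaling, 16 probes were higher in nuclei and 0 lower over the 3 muscles, and the interaction called 3. EDL had 12 higher and 0 lower, soleus 16 and 0, TA 9 and 1. Shares of all probes called were not computed for this or the other alternatives, so their counts cannot be set against the background. Without scaling the median difference of all probes was 0.42 over the 3 muscles, 0.35 in EDL, 0.96 in soleus and -0.16 in TA. Sun1 A_55_P2031248 turned to 0.58 and Tmpo A_52_P387564 in soleus to 0.20. At the 75th percentile Sun1 A_55_P2031242 turned to -0.039 and Tmpo A_55_P2137721 to -0.25.

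With slide as a random block 3 probes were higher over the 3 muscles, 2 in EDL and 1 in soleus, where 1 was lower. The EDL and soleus values of this fit depend on the TA cytoplasm arrays too, the only ones of a group on several slides. Lmna turned to -0.15 over the 3 muscles, -0.25 in EDL and -0.40 in soleus, Sun1 A_55_P2031242 to -0.039, Lbr A_51_P201137 to -0.17, Tmpo A_55_P2137721 to -0.10 and Tmpo A_55_P2137706 in EDL to -0.15. The probe pairs of Emd and Sun1 turned to 0.26 and -0.067, and those of Syne1 and Syne2 did not pass (1.82 and 0.19, adjusted p = 0.051 and 0.75). With the nuclear arrays as 1 sample 3 were higher over the 3 muscles, while EDL had 1 higher and 0 lower, soleus 0 and 0, TA 1 and 0. With soleus cytoplasm 2 and TA cytoplasm 1 left out, chosen after seeing the data, 8 were higher in EDL, 10 in soleus, and the interaction called 3. TA within 1 slide had 1 lower, with Lmna at -0.34 and Lmnb2 at -0.053. Without TA cytoplasm 1, within 1 scan day and with both arrays left out, Lmna in TA was -0.47 and Lmnb1 -0.41. Over all arrays left out in turn, the TA difference ran from -0.47 to 1.34 for Lmna, -0.41 to 1.57 for Lmnb1 and -0.063 to 0.29 for Lmnb2 (lowest without TA cytoplasm 3), and the Emd pair from -0.17 to 0.033. The cause of these changes was not tested.

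With replicate number as a block, 11 probes were higher and 2 lower over the 3 muscles, with 5 higher and 1 lower in EDL, 5 and 2 (soleus) and 6 and 2 (TA). This block paired the TA number 3 arrays, which by the labels do not share a mouse between fractions. It kept TA number 1 and number 2 apart, although TA cytoplasm 1 and TA cytoplasm 2 shared a mouse. The block added Lbr A_51_P201137 (0.39, adjusted p = 0.049) and lost Syne1 A_51_P314186 in soleus (adjusted p = 0.059). It also added Tmpo A_55_P2137706 in TA and the pair Tmpo A_55_P2137721 and A_65_P10450, took 1 call from the LEM list, and changed no other call among the 19 probes and their pairs.

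With single arrays left out, 10 to 14 probes were higher over the 3 muscles and 2 to 3 lower. EDL had 5 to 7 higher and 1 lower, soleus 3 to 8 and 1 to 2, and TA 5 to 11 and 1 to 3. The interaction called 0 to 3, and soleus against EDL 0 throughout. The deposited normalized table gave no value, as it holds none of these probes. Dim probes, such as Tmpo A_55_P2137721, are limited by signal over background.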
